A study of Mus musculus with 12 samples.

Results

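The genes described here are 30 enzymes and regulators of glycolysis and of glycogen synthesis and breakdown, measured in the M. gastrocnemius of adult mice. They were taken by gene symbol from a table of 22206 transcripts. Each symbol had 1 row, so all 30 genes were found and none was left out. The RNA came from male C57BL/6J mice aged 6.5 months that were fed 0.3% phosphorus (P0.3, the adequate diet) or 1.2% phosphorus (P1.2, the high-phosphorus diet) for 6 weeks. The diets thus differed in their content of KH2PO4, the phosphorus salt used, and also in KHCO3, which was added to P0.3 alone to match potassium. Of the 12 mice per diet in the study, 6 per diet were drawn at random for Clariom S mouse arrays, each array holding RNA from muscle of 1 mouse. The sample records give 30 mg of muscle, whereas the study's methods give a larger amount for the RNA. The mice shared cages in pairs, but the labels do not say which mice shared one. Only males and this muscle are analysed here. Arrays are named by diet and by the number in the sample label, which is odd for P0.3 and even for P1.2.

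Glycolysis splits glucose 6-phosphate into pyruvate in the cytosol and yields ATP without oxygen, and lactate dehydrogenase turns pyruvate and lactate into each other. Skeletal muscle stores glucose as glycogen, which phosphorylase opens with inorganic phosphate when the muscle contracts, after phosphorylase kinase has switched it on in response to calcium or adrenaline. Fast fibres, of which the mouse gastrocnemius is mostly made, rely on this route more than slow fibres do, and many of its steps have a muscle isoform beside isoforms known from liver, heart, brain or many tissues.

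The values are log2 signals, so a difference of 1 is a doubling of signal, and signals of different probe sets are not compared with each other. The signals ran from 2.52 to 19.93, and 95% of 1455 olfactory and vomeronasal receptor transcripts, which muscle should lack, had a mean below 6.11, called the dim level here. Over all transcripts, limma called 204 higher and 303 lower in the P1.2 group at the study's criteria, a fold change over 1.3 and an unadjusted p under 0.05. Quantile normalization turned this split to 240 and 213, and centring each array on its median to 287 and 203. No transcript had an adjusted p under 0.05 (limma, Benjamini-Hochberg), 722 had an unadjusted p under 0.05, and the methods' test also gave 0 at an adjusted p under 0.05. The 13 fast fibre genes checked against the labelled tissue averaged between 18.83 and 19.19 on every array. Among them, Myh4, Myl1 and Atp2a1 read 19.92 to 19.93, at the top of the scale, where differences are compressed. The steady mean thus does not show that the fast fibre content was constant. The mean of 12 slow fibre genes ran from 8.36 to 13.13 in the P0.3 group and from 8.99 to 13.20 in the P1.2 group. In bulk muscle, fewer cells of a type and less RNA per cell cannot be told apart.

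Stbd1 was the only one of the 30 genes called between the diets, and it was higher in the P1.2 group. That is 1 gene against 0.919% of all transcripts called higher, and 0 genes were called lower against 1.36% of all transcripts. Of the 30 genes, 17 had a higher mean and 13 a lower mean in the P1.2 group, and their median log2 fold change was 0.01, against -0.01 over all transcripts. The differences of 27 genes were at most 0.21 in size, and those of 21 were under 0.1. The other three were Stbd1, Ldhb and Pgm1. A fold change of 1.3 is a difference of 0.38 on this scale, and the median standard error of a difference was 0.18.

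**Figure D1:**
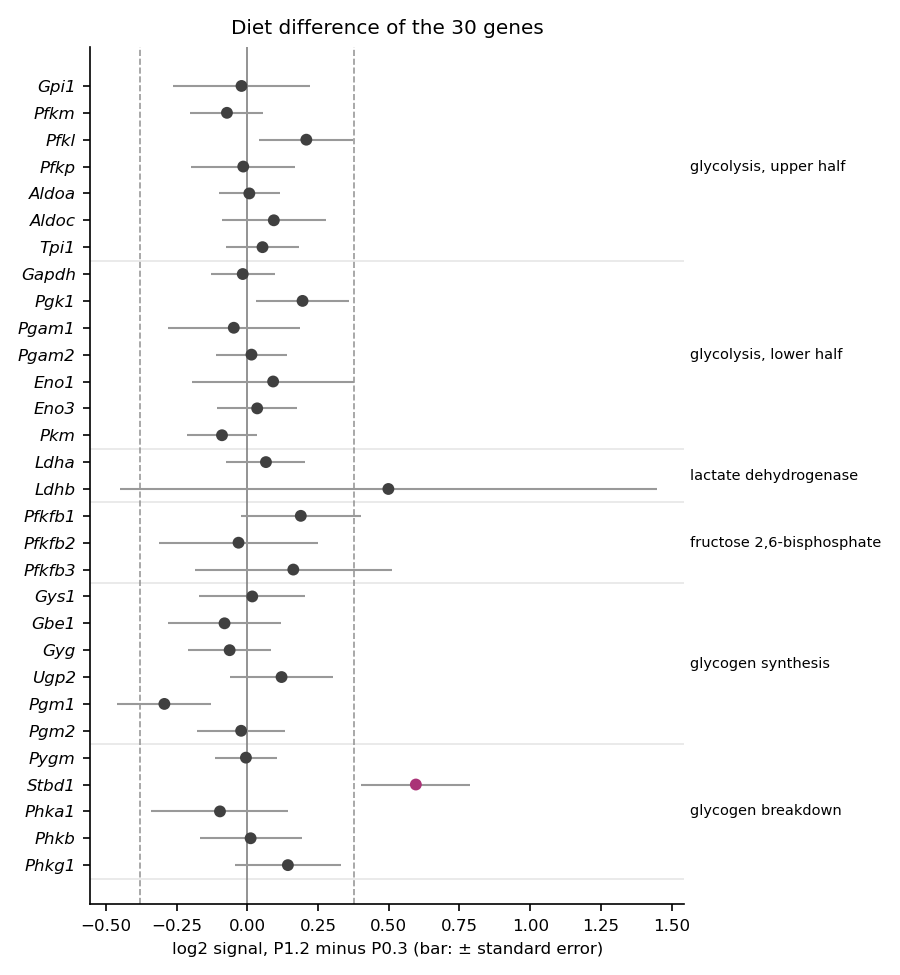
Difference in log2 signal between the diets (x axis, P1.2 minus P0.3) for each of the 30 genes (y axis, grouped by role), with 6 arrays per diet. Points are differences, bars are standard errors from limma and dashed lines mark a fold change of 1.3. Stbd1 (coloured) lies beyond the line at 0.60, while Ldhb lies at 0.50 with a standard error of 0.95.

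Stbd1 encodes starch-binding domain protein 1, which binds glycogen and tethers it to membranes for delivery to lysosomes. Its log2 signal in the P0.3 group was 6.04, 5.83, 5.81, 6.50, 5.94 and 5.88 on arrays 1, 3, 5, 7, 9 and 11. In the P1.2 group it was 6.42, 5.92, 7.04, 6.53, 6.60 and 7.06 on arrays 2, 4, 6, 8, 10 and 12. P1.2 arrays 6 and 12 stood highest, and the groups overlapped through P0.3 array 7 and P1.2 array 4. The mean was 6.00 ± 0.26 on P0.3, below the dim level, and 6.59 ± 0.42 on P1.2 (SD, n = 6 each). The log2 fold change was 0.60 (standard error 0.19, fold change 1.51), and the adjusted p of 0.9999 did not pass the correction over all transcripts. Without that correction, limma gave p = 0.0067 and an exact permutation test (two-sided, every split of the 12 arrays into 6 and 6) gave p = 0.0217, where the smallest p possible is 0.0022. Without P1.2 arrays 6 and 12 together, a choice made after the values were seen, the difference was 0.37 and the call was lost.

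Markers of other cells were set beside this difference. The mean of 9 adipocyte genes ran from 6.90 to 7.86 in the P0.3 group and from 6.89 to 8.44 in the P1.2 group. P1.2 arrays 6 and 12, the arrays highest for Stbd1, were also the highest of all 12 for this mean (8.44 and 7.99). P1.2 array 2, with a mean of 7.98, lay close to array 12, while its Stbd1 signal was 6.42. Of those 9 genes, only Lep, the leptin gene, was called, and it was lower in the P1.2 group by 0.55 on the log2 scale. Its signals ran from 4.75 to 6.08, below the dim level on all 12 arrays, and its adjusted limma p was 0.9999. With the adipocyte mean as a covariate, the Stbd1 difference was 0.55, and with the slow fibre mean it was 0.60, and both kept the call. P1.2 arrays 6 and 12 were highest for the mean of 7 macrophage genes, with 7.92 and 8.30 against 6.93 to 7.57 on P0.3. They were highest too for the mean of 5 fibroblast genes, with 10.83 and 12.02 against 10.33 to 10.68 on P0.3. For 4 tendon genes, array 12 alone, at 9.06, stood above the P0.3 range of 7.35 to 7.97. The mean of 5 neutrophil genes was highest on P1.2 array 2 (6.50) and was 5.52 and 5.46 on arrays 6 and 12. The part of macrophages, fibroblasts, tendon and neutrophils in the Stbd1 difference was not tested.

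The promoter of Stbd1 is shown because it is the gene called between the diets. The window runs from 250 bases before to 50 after the RefSeq start (GRCm38.p6) and is written 5′ to 3′. Capitals mark the E-box letters CANNTG, which many muscle and metabolic factors can bind and which read alike on both strands. The Stbd1 window held 1 such match, CAGGTG.
Stbd1 (chr5:92602801-92603100, plus strand): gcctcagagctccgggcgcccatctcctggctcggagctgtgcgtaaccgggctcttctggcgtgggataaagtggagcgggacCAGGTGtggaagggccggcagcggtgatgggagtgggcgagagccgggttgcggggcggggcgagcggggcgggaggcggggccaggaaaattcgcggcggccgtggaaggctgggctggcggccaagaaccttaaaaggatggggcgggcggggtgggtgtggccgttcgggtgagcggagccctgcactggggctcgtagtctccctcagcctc

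All 30 genes had a RefSeq promoter of this length, and only the farthest upstream start of each was searched. An E-box stood in 25 of them, against 72.3% of 32851 mouse promoters, where every start of a gene was counted. ACGTG, the core of the hypoxia response element, searched on both strands and able to lie inside an E-box, stood in 12 of the 30 and in 19.6% of all. TATAAA stood in 1 of the 30 (the gene the array calls Pgm2) against 13.6% of all, TCAGGTT, the MEF3 letters, in 1 (Pfkl) against 4.07%, and the MEF2 motif in 1 (Pgam2) against 3.19%, each on both strands. The MEF2 and TATAAA letters can overlap. A match is a stretch of letters and not a measured site.

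In the upper steps of glycolysis, down to the triose phosphates, 0 of 7 genes were called, and their differences ran from -0.07 to 0.21. Pfkm, the muscle subunit of phosphofructokinase, which commits fructose 6-phosphate to glycolysis, was 18.70 ± 0.15 on P0.3 and 18.63 ± 0.16 on P1.2 (SD, n = 6 each). Pfkl, the liver subunit, had the highest difference of the 7, with 6.25, 7.06 and 7.23 as the lowest, median and highest signal in the P0.3 group and 6.94, 7.06 and 7.40 in the P1.2 group. The medians of both diets thus lay together, and P0.3 array 5 held the lowest signal. The difference was 0.21 (standard error 0.17, exact permutation p = 0.2554). Pfkp, the platelet subunit, differed by -0.01 (standard error 0.18), and Gpi1, which turns glucose 6-phosphate into fructose 6-phosphate, by -0.02 (standard error 0.24). Aldoa, the muscle aldolase, lay between 19.83 and 19.87 on all 12 arrays, near the top of the scale, where differences are compressed. Aldoc, the brain aldolase, was the only one of the 30 genes with an overall mean below the dim level (5.52 ± 0.36 and 5.61 ± 0.29, SD, n = 6 each). Tpi1, which interconverts the triose phosphates, differed by 0.05 (standard error 0.13).

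The lower steps of glycolysis also had 0 of 7 genes called, with differences from -0.09 to 0.20. Pgk1, phosphoglycerate kinase, which makes the first ATP of the pathway, had 15.40, 15.74 and 15.99 as the lowest, median and highest signal in the P0.3 group. In the P1.2 group these were 15.33, 15.96 and 16.15, so that the lowest signal of all stood in the group with the higher median. The difference was 0.20 (standard error 0.16, exact permutation p = 0.2403). Gapdh, the dehydrogenase step that takes up phosphate, was 19.64 ± 0.05 against 19.62 ± 0.10 (SD, n = 6 each) and also lay near the top of the scale. The phosphoglycerate mutase of muscle, Pgam2, differed by 0.01 and the widely expressed Pgam1 by -0.05 (standard errors 0.13 and 0.23). For the enolases, the muscle gene Eno3 differed by 0.03 (standard error 0.14) and the widely expressed Eno1 by 0.09 (standard error 0.29). Pkm, pyruvate kinase of muscle, differed by -0.09 (standard error 0.12).

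**Figure D2:**
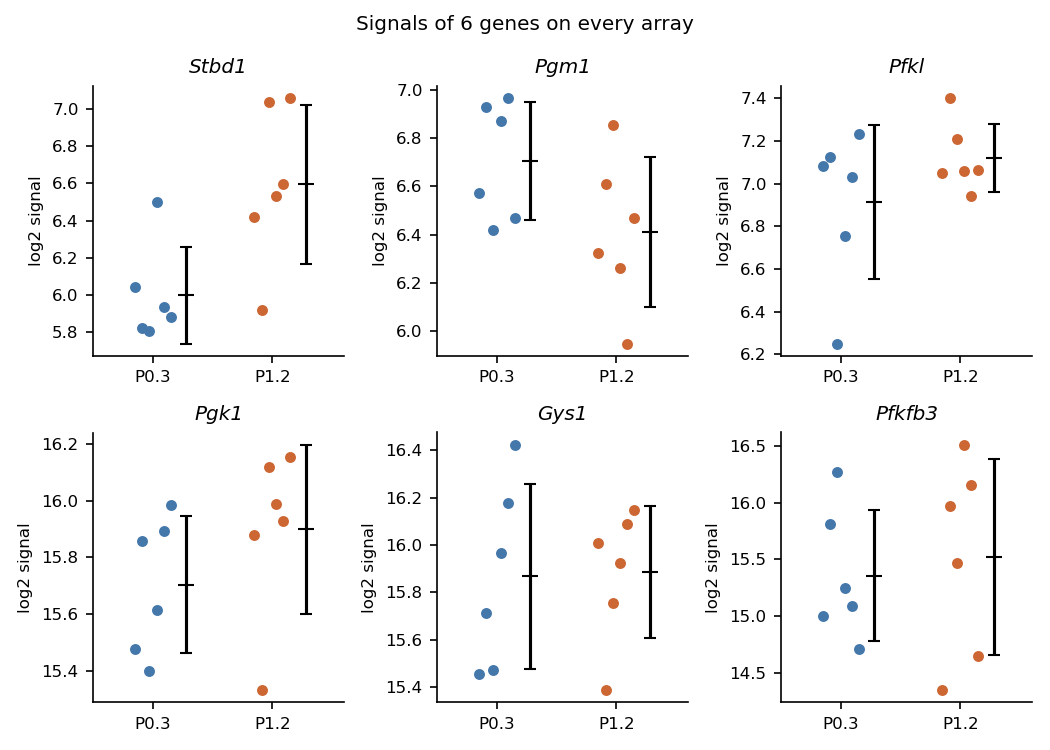
Log2 signal (y axis) of Stbd1, Pgm1, Pfkl, Pgk1, Gys1 and Pfkfb3 on each array of the P0.3 and P1.2 groups (x axis), 6 points per diet in sample-number order. The bar beside each group is the mean ± SD, and each panel has its own axis range, which does not start at 0. The diets overlap in every panel, and Stbd1 shows the widest gap between the means, 6.00 against 6.59.

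Between the lactate dehydrogenase subunits, Ldha, the muscle subunit, was 18.26 ± 0.18 on P0.3 and 18.32 ± 0.21 on P1.2 (SD, n = 6 each). Ldhb, the subunit of heart and slow fibres, was 9.03 ± 2.53 and 9.53 ± 1.52 (SD, n = 6 each). Its difference of 0.50 was smaller than its standard error of 0.95 (exact permutation p = 0.6818). The bifunctional enzymes that make and remove fructose 2,6-bisphosphate, an activator of phosphofructokinase, had 0 of 3 genes called. Pfkfb1, the gene known from liver and muscle, differed by 0.19 (standard error 0.21), Pfkfb2, known from heart, by -0.03 (standard error 0.28), and Pfkfb3, which has a strong kinase side, by 0.16 (standard error 0.35).

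None of the 6 glycogen synthesis genes was called. The array annotation and RefSeq swap the names of the phosphoglucomutases: the array's Pgm1 is Pgm2 in RefSeq, and the array's Pgm2 is Pgm1. The array's names are kept here. Pgm1, an enzyme that also acts on pentose phosphates, had 6.42, 6.72 and 6.97 as the lowest, median and highest signal in the P0.3 group and 5.95, 6.40 and 6.85 in the P1.2 group. Its difference of -0.29 (standard error 0.17) was the most negative of the 30 genes, with an exact permutation p of 0.0974. Without P1.2 array 6 it was -0.38 and met the study's criteria. Pgm2, the main muscle phosphoglucomutase, which links glucose 1-phosphate and glucose 6-phosphate, differed by -0.02 (standard error 0.16).

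Further along synthesis, Ugp2, which makes UDP-glucose, differed by 0.12 (standard error 0.18) and Gyg, glycogenin, the protein that primes the chain, by -0.06 (standard error 0.15). Gys1, muscle glycogen synthase, was 15.87 ± 0.39 against 15.88 ± 0.28 (SD, n = 6 each), and Gbe1, the branching enzyme, differed by -0.08 (standard error 0.20). On the breakdown side, Pygm, muscle phosphorylase, read between 19.91 and 19.93 on all 12 arrays, at the top of the scale, and no fold change is given for it. The phosphorylase kinase genes were not called between the diets. Phka1, the regulatory alpha subunit of muscle, differed by -0.10 (standard error 0.24), Phkb, the beta subunit, by 0.01 (standard error 0.18), and Phkg1, the catalytic gamma subunit of muscle, by 0.14 (standard error 0.19).

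Whether isoforms moved apart with the diet was asked from the difference of the signals of a pair on each array, compared between the diets. Of 8 such contrasts, Aldoa minus Aldoc and Gys1 minus Pygm hold a gene at the top of the scale and are not read. None of the other 6 passed (two-sided exact permutation p from 0.145 to 0.9416), which does not show that the isoforms moved alike. Pfkm minus Pfkl had the lowest p, with a P1.2 minus P0.3 value of -0.28 (standard error 0.17). Pfkm minus Pfkp gave -0.06 (standard error 0.24) and Pgam2 minus Pgam1 0.06 (standard error 0.28). For Eno3 minus Eno1 the value was -0.06 (standard error 0.25), and for Pfkfb1 minus Pfkfb3 it was 0.03 (standard error 0.54). Ldha minus Ldhb, muscle against heart subunit, gave -0.43 with a standard error of 1.28.

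The mice of 1 diet differed more in slow fibre genes than the diets did. The slow fibre level, the mean log2 signal of the 12 slow fibre genes on an array, was 10.72 ± 1.97 on P0.3 and 10.70 ± 1.64 on P1.2 (SD, n = 6 each), with an exact permutation p of 0.974. It was 9.88, 10.66, 9.28, 8.36, 13.13 and 13.02 on P0.3 arrays 1, 3, 5, 7, 9 and 11, and 12.05, 8.99, 10.13, 10.59, 9.23 and 13.20 on P1.2 arrays 2, 4, 6, 8, 10 and 12. The widest gap, 1.39, separated 4 arrays (P0.3 arrays 9 and 11, P1.2 arrays 2 and 12) from the other 8. None of the 30 genes is in the slow fibre list. Their slopes on this level were fitted with limma with diet as a term, in log2 units of signal per log2 unit of slow fibre level. Because the arrays fall apart at that gap, no correlation is given.

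Ldhb and Pfkfb2 rose with the slow fibre level, and Phka1 and Phkg1 fell (adjusted limma p under 0.05 over all transcripts). These are 2 of 30 genes against 2.08% of all transcripts with a rising slope, and 2 of 30 against 1.11% with a falling slope. A further 8 of the 30 had an unadjusted p under 0.05 without passing the adjustment, 4 in each direction. Read by role, the genes that passed were the heart-type subunit of lactate dehydrogenase, the heart-type bifunctional enzyme and a pair of subunits of phosphorylase kinase. No gene of the upper or lower steps of glycolysis and no gene of glycogen synthesis passed.

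**Figure D3:**
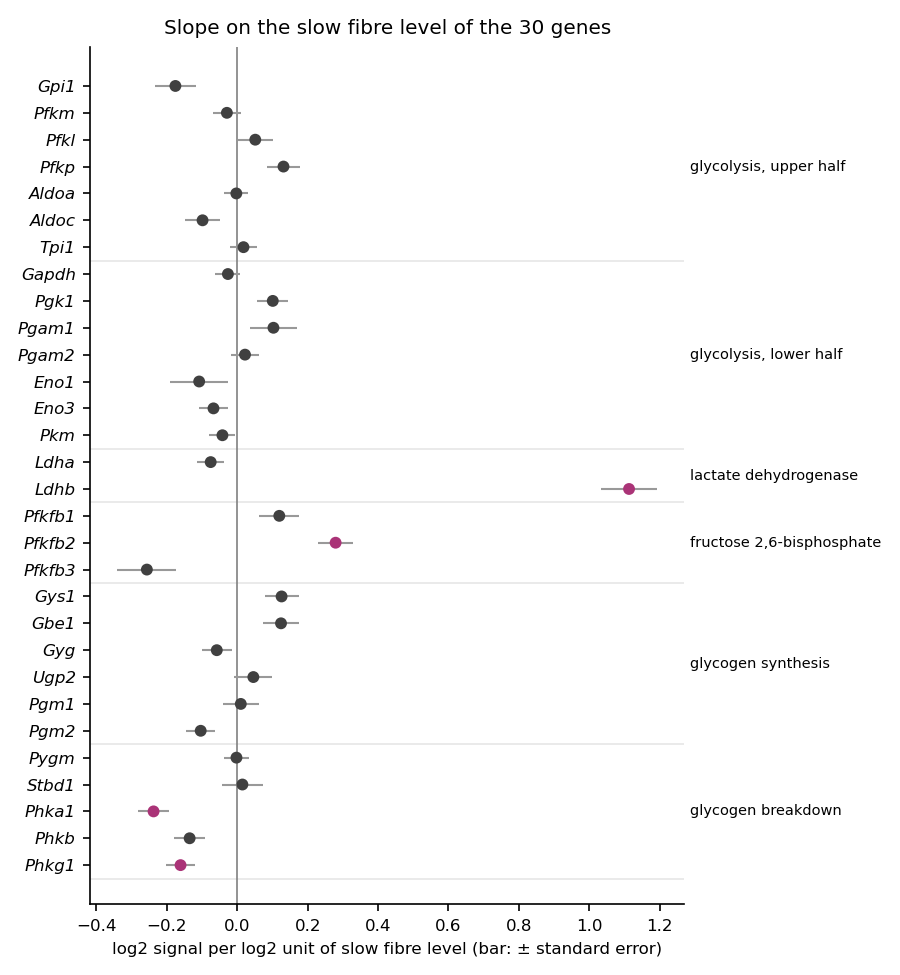
Slope of the log2 signal on the slow fibre level (x axis, log2 units per log2 unit) for each of the 30 genes (y axis, grouped by role), fitted over 12 arrays with diet as a term. Points are slopes, bars are standard errors from limma and coloured points have an adjusted p under 0.05. Ldhb stands apart at 1.11, Pfkfb2 lies at 0.28, and Phka1 and Phkg1 lie at -0.24 and -0.16.

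Ldhb followed the slow fibre level across the whole range. Its signal was 7.53, 9.27, 6.44, 6.85, 12.20 and 11.89 on P0.3 arrays 1, 3, 5, 7, 9 and 11, and 10.55, 7.57, 9.08, 9.70, 8.43 and 11.83 on P1.2 arrays 2, 4, 6, 8, 10 and 12. The 4 arrays with the higher slow fibre level were the 4 highest for Ldhb, from 10.55 to 12.20, and the other 8 ran from 6.44 to 9.70. The slope was 1.11 (standard error 0.08, adjusted p = 2.0e-07). It was 1.25 within the P0.3 arrays (adjusted p = 0.0001271) and 0.91 within the P1.2 arrays (adjusted p = 0.0005431). The difference between these slopes was -0.34 (adjusted p = 0.9999). On the 8 arrays below the gap alone the slope was also 1.11 but did not pass (adjusted p = 0.1857).

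Pfkfb2 had 10.37, 10.67 and 11.18 as the lowest, median and highest signal on the 4 arrays above the gap and 9.26, 9.81 and 9.93 on the other 8, with no overlap. The slope was 0.28 (standard error 0.05, adjusted p = 0.0037). Within the P0.3 arrays it was 0.35 (adjusted p = 0.0404) and within the P1.2 arrays 0.18 (adjusted p = 0.4336). On the 8 arrays below the gap it was 0.11 and did not pass. The related Pfkfb1 had a slope of 0.12 (adjusted p = 0.3304) and Pfkfb3 a slope of -0.26 (adjusted p = 0.1183). The latter passed without P0.3 array 7 (slope -0.33, adjusted p = 0.0363).

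Of the phosphorylase kinase subunits, Phka1 had 15.89, 16.21 and 16.27 as the lowest, median and highest signal on the 4 arrays above the gap and 16.84, 17.04 and 17.19 on the other 8. The slope was -0.24 (standard error 0.04, adjusted p = 0.0051). Phkg1 had 16.01, 16.14 and 16.61 on the 4 arrays and 16.66, 16.77 and 17.02 on the other 8. Both genes were thus lower on all 4 arrays than on any of the 8. These genes, like Ldhb and Pfkfb2, were picked by their slope on this level, so the split at the gap adds no support. The share of all transcripts that split there was not counted. Pygm, at the top of the scale, split there too. The slope of Phkg1 was -0.16 (standard error 0.04, adjusted p = 0.0424). Phkb had 16.47, 16.76 and 17.16 against 17.01, 17.26 and 17.50, which overlapped, and its slope of -0.14 did not pass (adjusted p = 0.1168).

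On the 8 arrays below the gap alone the slopes of Phka1 and Phkg1 were 0.0032 and -0.0047 (adjusted p = 0.9996 for both), so these slopes rest on the 4 arrays above it. The Phkg1 call was also lost without any one of P0.3 arrays 1, 5, 9 and 11 and P1.2 arrays 4, 6, 8 and 12, with slopes from -0.17 to -0.13 and adjusted p from 0.0564 to 0.2374. The calls of Ldhb, Pfkfb2 and Phka1 held without each single array. Within the P0.3 arrays Phka1 had a slope of -0.21 and within the P1.2 arrays of -0.27, neither past the threshold.

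**Figure D4:**
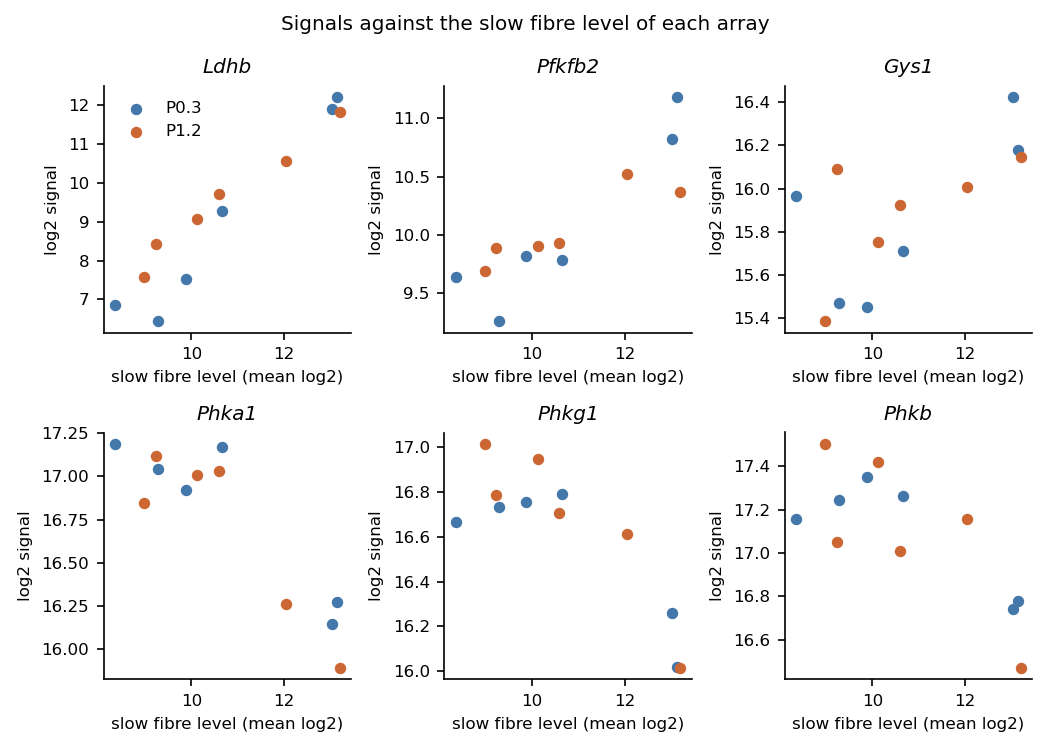
Log2 signal (y axis) of Ldhb, Pfkfb2, Gys1, Phka1, Phkg1 and Phkb against the slow fibre level of each array (x axis, mean log2 signal of 12 slow fibre genes). Each point is 1 of the 12 arrays, coloured by diet, and each panel has its own axis range. Ldhb climbs from 6.44 to 12.20, while Phka1 and Phkg1 are level over the 8 arrays up to 10.66 and lower on the 4 arrays from 12.05 on.

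Among the genes that did not pass the adjustment, Gys1 had 16.01, 16.16 and 16.42 as the lowest, median and highest signal on the 4 arrays above the gap and 15.39, 15.73 and 16.09 on the other 8, with a slope of 0.13 (adjusted p = 0.1977). Gbe1 and Pfkp had slopes of 0.12 and 0.13, and Pgk1 of 0.10. Gpi1 and Pgm2 had slopes of -0.18 and -0.10. The slopes of Pfkm, Aldoa, Gapdh, Pkm, Pygm and Gyg lay between -0.06 and -0.0022, and those of Tpi1, Pgam2, Pgm1, Ugp2, Stbd1 and Pfkl between 0.01 and 0.05. Pgam1 stood at 0.10, Eno1 at -0.11, Aldoc at -0.10, Ldha at -0.08 and Eno3 at -0.07, with adjusted p from 0.3746 to 0.5949.

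Some markers of other cells also moved with the slow fibre level. Of the marker genes, 4 of 6 erythroid (the globin genes), 2 of 6 endothelial (Kdr and Emcn), 1 of 9 adipocyte (Fabp4) and 2 of 13 fast fibre genes (Myh1 and Myh2) had a rising slope that passed, and none had a falling one. The mean of the erythroid genes ran from 10.98 to 12.58 in the P0.3 group and from 11.11 to 13.09 in the P1.2 group, and that of the endothelial genes from 9.11 to 10.15 and from 9.09 to 10.18. No gene of the macrophage, neutrophil, fibroblast, tendon, Schwann cell or satellite cell lists passed. The part of these cells in the slopes of Ldhb, Pfkfb2, Phka1 and Phkg1 was not tested. With the mean of the fast fibre genes in place of the slow fibre level, only Ldhb passed. That mean holds genes at the top of the scale, and also Myh1 and Myh2, which rose with the slow fibre level.

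The promoters of the genes whose slope passed are shown so that the rising and the falling genes can be set side by side (RefSeq, GRCm38.p6, 250 bases before to 50 after the start, 5′ to 3′, E-boxes in capitals). The promoter table held 3 windows for Pfkfb2, of which the farthest upstream is printed, although the RefSeq gene itself begins further upstream than any of them. The RefSeq genes of Phka1 and Phkg1 also begin upstream of the start used here, though still within the printed window. Ldhb had 0 E-boxes, Pfkfb2 had 1, Phka1 had 2 and Phkg1 had 5, of which a pair shares bases. None of these windows held the TATAAA or MEF2 letters, which says only that the letters are not in them.
Ldhb (chr6:142507908-142508207, minus strand): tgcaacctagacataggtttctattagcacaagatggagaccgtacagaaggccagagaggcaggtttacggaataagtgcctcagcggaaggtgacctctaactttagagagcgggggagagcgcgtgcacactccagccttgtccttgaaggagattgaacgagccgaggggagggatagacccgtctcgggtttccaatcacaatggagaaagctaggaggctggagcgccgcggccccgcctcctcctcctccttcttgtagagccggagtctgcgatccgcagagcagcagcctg
Pfkfb2 (chr1:130715999-130716298, minus strand): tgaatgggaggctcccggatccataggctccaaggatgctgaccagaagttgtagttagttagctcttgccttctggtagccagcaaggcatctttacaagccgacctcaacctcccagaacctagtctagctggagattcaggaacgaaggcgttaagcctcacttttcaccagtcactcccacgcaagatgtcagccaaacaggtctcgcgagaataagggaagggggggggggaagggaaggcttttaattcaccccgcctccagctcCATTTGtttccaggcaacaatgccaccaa
Phka1 (chrX:102644197-102644496, minus strand): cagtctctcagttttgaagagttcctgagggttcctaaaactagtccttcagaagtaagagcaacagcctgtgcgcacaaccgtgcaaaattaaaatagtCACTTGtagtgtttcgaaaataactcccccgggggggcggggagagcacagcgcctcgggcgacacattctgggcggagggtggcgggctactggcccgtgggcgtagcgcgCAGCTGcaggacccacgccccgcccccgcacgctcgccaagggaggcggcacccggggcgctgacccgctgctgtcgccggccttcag
Phkg1 (chr5:129879039-129879338, minus strand): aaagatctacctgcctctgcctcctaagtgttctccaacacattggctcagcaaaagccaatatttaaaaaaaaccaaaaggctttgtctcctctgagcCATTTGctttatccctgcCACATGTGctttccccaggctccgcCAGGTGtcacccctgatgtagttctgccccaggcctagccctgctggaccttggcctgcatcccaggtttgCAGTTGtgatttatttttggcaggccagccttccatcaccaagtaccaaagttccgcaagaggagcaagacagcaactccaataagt

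The neighbouring pathways were described with 8 lists of other genes. At the study's criteria, 1 of 10 genes of hexose entry and trapping was higher in the P1.2 group. Over all transcripts, 0.919% were called higher and 1.36% lower. Slc2a12, a glucose transporter, differed by 0.56 (standard error 0.14), with no overlap between the diets. Such a lack of overlap was found in 34 of all 22206 transcripts. Like every other transcript, Slc2a12 did not pass the adjustment over all transcripts. The transporter and hexokinase of muscle, Slc2a4 and Hk2, differed by 0.19 and -0.08 (standard errors 0.16 and 0.22) and were not called. In the other 7 lists 0 genes were called between the diets. They held 21 other isoforms or related genes, and 6 genes of debranching, lysosomal glycogen release, Lafora disease and the glycogen synthase kinases. A further 10 were of protein phosphatase 1 and its glycogen-targeting subunits. Another 11 were of pyruvate and lactate transport and the glycerol phosphate and malate-aspartate shuttles. The rest were 8 of glucose formation, 8 of the pentose phosphate pathway and 14 AMPK subunits and regulators. The medians of the 8 lists lay between -0.08 and 0.09, against -0.01 over all transcripts.

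With the slow fibre level, 4 of the 88 genes of these lists rose (4.55%, against 2.08% of all transcripts) and 6 fell (6.82%, against 1.11%). Those that rose were the malate-aspartate shuttle enzymes Got1 and Mdh1 (slopes 0.44 and 0.32), the lactate transporter Slc16a1 (0.33) and the sugar-sensing factor Mlxipl (0.29). Those that fell were Prkag3 and Prkab2, AMPK subunits known from fast muscle (-0.44 and -0.25), the glycerol phosphate enzymes Gpd2 and Gpd1 (-0.24 and -0.21), the muscle fructose bisphosphatase Fbp2 (-0.25) and the glucose transporter Slc2a3 (-0.38). Their adjusted p ran from 4.3e-05 to 0.044. Slc16a3, the lactate exporter of fast fibres, had a slope of -0.18 that did not pass (adjusted p = 0.0532). These genes were named after their values were seen.

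Eno1 and Gpi1 differed between low and high sample numbers. For Gpi1, the slope on the slow fibre level also had an unadjusted limma p of 0.0089. On the 6 arrays numbered 1 to 6, which hold 3 arrays of each diet, Eno1 ran from 11.82 to 12.58, and on the 6 arrays numbered 7 to 12 from 10.87 to 11.41. The means were 12.09 and 11.11. Gpi1 ran from 17.24 to 17.67 and from 16.07 to 17.10, with means of 17.38 and 16.68. In neither gene did the low and the high numbers overlap, in either diet. That is 2 of 30 genes against 2.72% of all transcripts. What the number records is not given in the labels, the pattern was noticed in the values, and no test was made of it. The slow fibre level of the low and the high numbers overlapped, from 8.99 to 12.05 and from 8.36 to 13.20, but was not evenly spread. Among the low numbers, only number 2 lay above the gap in that level. Among the high numbers, 9, 11 and 12 did. Sample number and slow fibre level were thus partly tied.

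**Figure D5:**
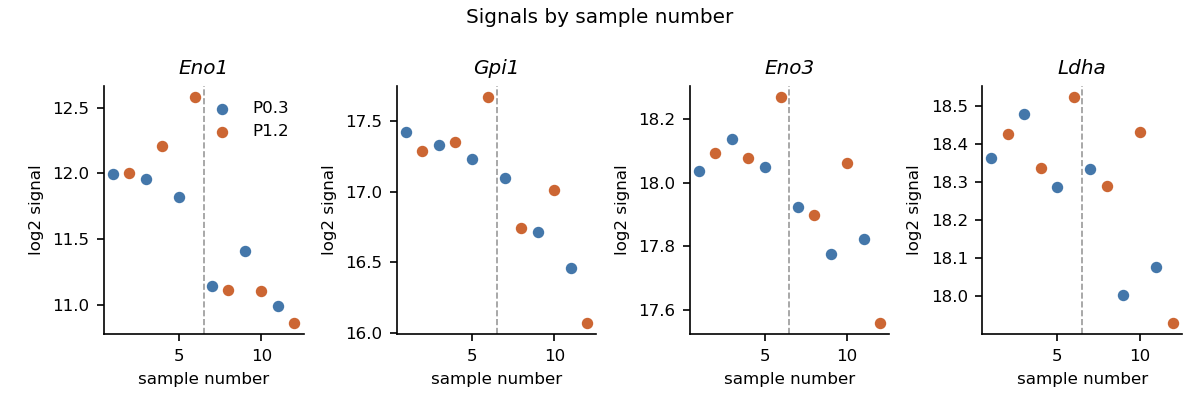
Log2 signal (y axis) of Eno1, Gpi1, Eno3 and Ldha against the sample number in the label (x axis). Each point is 1 of the 12 arrays, coloured by diet, the dashed line separates numbers 1 to 6 from 7 to 12, and each panel has its own axis range. Eno1 runs from 11.82 to 12.58 left of the line and from 10.87 to 11.41 right of it, and Eno3 and Ldha overlap across it.

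The muscle enolase Eno3 ran from 18.04 to 18.27 on the low numbers and from 17.56 to 18.06 on the high ones, so that P1.2 array 10 alone overlapped. Ldha ran from 18.29 to 18.52 and from 17.93 to 18.43. The same lack of overlap was seen in 7 of the 88 genes of the neighbouring lists (7.95%, against 2.72% of all transcripts). Bpgm, bisphosphoglycerate mutase, Phka2, the liver alpha subunit of phosphorylase kinase, Ppp1r3a, the muscle glycogen-targeting subunit, the phosphatase subunits Ppp1cb and Ppp1cc, and Prkaa2, a catalytic AMPK subunit, were higher on the low numbers. Pgd, of the pentose phosphate pathway, was lower on them. With the sample numbers as a block the Stbd1 difference was 0.60 and still called, Ldhb, Pfkfb2 and Phka1 kept their calls, and Phkg1 lost its call (slope -0.14, adjusted p = 0.0883).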

How the data were processed

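M. gastrocnemius RNA of 12 male mice, 6 per diet, was measured on Clariom S mouse arrays, 1 per mouse. The authors deposited log2 signals of 22206 transcripts, made with the GCCN-SST-RMA algorithm in Affymetrix Expression Console (version 1.4), and, in another table, these log2 signals rounded to 2 decimals. The build behind the array annotation is not given in the sources used here, so coordinates are those of RefSeq (GRCm38.p6). The deposited group means, fold changes and p-values, which hold the authors' own comparison, were not used. Per the labels, each array has a known diet.

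The deposited signals were used without further normalization. Using limma (version 3.58.1, R version 4.3.3), each transcript was fitted for diet, as P1.2 minus P0.3, or for diet and the mean of 12 slow fibre genes. Adjusted p-values are Benjamini-Hochberg values over all transcripts. Calls between the diets follow the study's criteria, a fold change over 1.3 and an unadjusted p under 0.05. Slopes were called at an adjusted p under 0.05. Single genes and isoform contrasts were tested exactly, two-sided, by permuting the diet labels in every possible way. The 30 genes and all lists were chosen with earlier results of these data known. All 30 genes are named, and of the lists those genes with an unadjusted p under 0.05 for diet, at most 3 a list. Others were named after their values were seen. A result of the hexose entry list is not reported here. The 12 arrays limit the precision.

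Alternatives were the study's own test, the same with unequal variances, array weights in limma, a robust trended prior, centring on the array median, quantile normalization, the rounded table, leaving out dim transcripts, the mean of all rows of a symbol, slow fibre or adipocyte means as covariates, Myh7 alone or the fast fibre genes as the level, no diet term, and leaving out each array. Fits without P1.2 arrays 6 and 12, with a block of sample numbers, on the 8 arrays with the lower slow fibre level and within each diet were added after the data were seen. The steps were tested on simulated data. Python 3.11.15, numpy 2.4.6, pandas 2.3.3 and matplotlib 3.10.9 were used.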

Additional observations from a re-analysis of the deposited data

Results flagged for a closer look

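Of 76 groups of 6 arrays examined (the 30 genes and the 8 isoform contrasts in each diet), 5 held 1 array far from the other 5, by a gap that took up most of the range of the group. Chance alone flags about 1 in 20 groups. Aldoa read 19.87 on P1.2 array 6, against 19.83 to 19.84 on the other P1.2 arrays, a small step near the top of the scale. Pgk1 was 15.33 on P1.2 array 4, against 15.88 to 16.15 on the others. P0.3 array 7 stood high in 3 genes: Gyg was 12.51 against 12.04 to 12.14, Pgm2 was 17.73 against 17.12 to 17.30, and Stbd1 was 6.50 against 5.81 to 6.04. That array also had the lowest slow fibre level of all 12, 8.36. Without P0.3 array 7 the Stbd1 difference between the diets was 0.70.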

How the results depend on the processing

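The call of Stbd1 held under every alternative except the fit without P1.2 arrays 6 and 12 (0.37), with differences from 0.50 to 0.73, and no isoform contrast passed under any. The fit without dim transcripts is no support here, since Stbd1 averaged 6.00 on P0.3, under the dim level of 6.11, and passed that filter through the P1.2 arrays. With each array left out in turn, the number of genes lower in the P1.2 group was between 0 and 1, where the 1 was Pgm1 without P1.2 array 6. Without P1.2 arrays 6 and 12, 0 genes were higher and 1 was lower, again Pgm1 (-0.42). For the slow fibre level, leaving out 1 array gave 1 to 3 falling genes, and the sample-number block gave 1. The fast fibre level gave 1 rising and 0 falling genes, the 8 arrays below the gap 0 and 0, the P0.3 arrays 2 and 0, and the P1.2 arrays 1 and 0. On those 8 arrays the slope of Phka1 turned to 0.0032. The cause was not tested. No paired analysis was possible because the sample numbers of the diets do not match. Over all transcripts, 204 were higher and 303 lower, against 240 and 213 after quantile normalization, 287 and 203 after centring, 134 and 215 with unequal variances, 104 and 66 without dim transcripts, and 195 to 323 and 284 to 478 with each array left out (323 and 478 without P1.2 array 4, 245 and 455 without P0.3 array 1). Slopes passed for 462 rising and 247 falling transcripts, for 130 and 35 on the fast fibre level, for 2 and 0 on the 8 arrays, for 158 and 28 within P0.3, for 69 and 7 within P1.2, and for 266 to 550 and 89 to 471 with each array left out (266 and 123 without P0.3 array 9, 266 and 89 without P1.2 array 12, 550 and 471 without P0.3 array 7, 379 and 153 without P0.3 array 5, 363 and 116 without P0.3 array 11). Signals near the top of the scale (Pygm, Aldoa, Gapdh) and near the dim level (Stbd1, Aldoc, Pgm1, Pgam1 and the marker Lep) are compressed or close to background.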
